A study of Homo sapiens with 21 samples.

Results

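The comparison described here set BFTC909 cells that carried siRNA against METTL4 and were kept in hypoxia against BFTC909 cells that carried a scrambled control siRNA and stayed in normoxia. The knockdown is called siRNA in the labels. The comparison held 4 of the 21 RNA-seq libraries of the series, 2 for each condition, and they were chosen by their labels. BFTC909 is a cell line from a urothelial carcinoma of the human renal pelvis. The normoxia cells (Scr-si normoxia) were kept at 18% O2, and the hypoxia cells with METTL4 siRNA (METTL4-si hypoxia) at 1% O2 for 18 h. A further group of 2 libraries, with the scrambled siRNA at 1% O2 for 18 h (Scr-si hypoxia), gave the hypoxia response of the same cells without METTL4 knockdown. All 6 libraries came from cells with an siRNA, and each had 19.04 to 24.1 M reads on genes. No METTL4-si library in normoxia was analysed here, so what METTL4 siRNA did regardless of oxygen and what it did only in hypoxia cannot be told apart. Nothing in the labels says that the libraries of a group came from separate cultures, so the p-values measure the spread between these libraries, which may be technical.

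Cells that lack oxygen stabilize the alpha subunits of the hypoxia-inducible factors (HIF-1 and HIF-2), which prolyl hydroxylases otherwise mark for destruction. The HIF dimers then raise genes of glucose uptake and glycolysis, pH control, blood vessel growth, mitophagy and collagen processing, while many genes of mitochondria and the cell cycle are lowered. In carcinoma cells hypoxia is also known to bring on the epithelial-mesenchymal transition (EMT), in which matrix and mesenchymal genes rise. METTL4 is a methyltransferase of adenine, and the study asked what the hypoxia response of these cells owes to it through N6-methyladenine in DNA. The comparison of METTL4-si hypoxia with normoxia gives the net result, namely what of the hypoxia response was still there and what else had changed.

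Values are CPM scaled by the TMM method, and a fold change is on the scale of log2(value + 1), which understates the change of genes at low values. A gene was called when it differed by at least 1.3-fold with an adjusted p under 0.05 by limma, fitted over all 14869 genes tested and over the 3 groups together. A gene called in Scr-si hypoxia is termed held when it was also called, in the same direction, in METTL4-si hypoxia against normoxia and was not called back toward normoxia between the 2 hypoxia groups. It is partly held when both were called, lost when it was called only as moved back, and undecided when neither was called. A gene is termed new when it was not called in Scr-si hypoxia but differed from both Scr-si groups in the same direction. The comparisons share libraries, so these classes describe the genes and carry no test of their own. Where 0 members of a gene list are given for a direction with all 6 libraries, edgeR and DESeq2 on whole reads also called 0, as did an unadjusted p under 0.05 with the 1.3-fold threshold.

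The label of the cells was first set against marker genes. Of 15 urothelial markers, 5 had a row in the table and 2 were tested, the transcription factor PPARG and the renal lineage factor PAX8. PPARG had values of 10.7 to 28.2 and PAX8 of 322 to 384 in the 6 libraries. The others with a row were too low to be tested, UPK3B at 0.957 or less and TP63 at 1.08 or less. GATA3 was at 0.964 or less, except for 128 in METTL4-si replicate 2. Of the markers with a row, only PAX8 was thus high in all 6 libraries. The uroplakin genes UPK1A, UPK1B, UPK2 and UPK3A and the keratins KRT5, KRT7, KRT13 and KRT20 had no row. Each gene in the table had at least 9 reads in its second-highest library, so a gene without a row may still have had a few reads in every library, or stand under another symbol. Markers of blood and endothelium stayed near 0, with summed values of at most 2.86 for the 1 of 12 blood cell genes and 7.20 for the 2 of 8 endothelial genes in the table.

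The METTL4-si libraries were less alike than the other pairs, and replicate 2 stood apart. The standard deviation of the log2 difference between replicates was 0.369 in METTL4-si hypoxia, against 0.147 in normoxia and 0.168 in Scr-si hypoxia. The METTL4-si replicates differed by 2-fold or more for 253 genes, all 253 of them higher in replicate 2, against 15 genes in normoxia and 10 in Scr-si hypoxia. Those given here were chosen after their values were seen. The keratin KRT8 had a value of 5.02 in METTL4-si replicate 1 and 715 in replicate 2, with 2.60 to 7.55 in the 4 Scr-si libraries. The transcription factor GATA3 stood at 0.844 and 128 in the METTL4-si replicates and at 0.573 to 0.964 elsewhere, too low in the other libraries to be tested, and the neurotrophic factor receptor GFRA1 at 0.891 and 76.2. Of 16 breast luminal markers 5 had a row, with sums of 427 and 444.0 in normoxia, 1182 and 1213 in Scr-si hypoxia, and 444 and 736 in METTL4-si replicates 1 and 2, whereas ESR1, PGR, TFF1, TFF3 and AGR2 had none. The largest part of each sum was CA12, also on the list of HIF targets below. It had 323 and 333 in normoxia, 996 and 1017 in Scr-si hypoxia and 303 and 285 in METTL4-si hypoxia. GATA3, GREB1 (10.6 and 121), XBP1 (128 and 198) and MUC1 (1.55 and 4.98) were instead higher in METTL4-si replicate 2 than in replicate 1. In bulk RNA, a change in the number of cells of a type and a change in RNA per cell cannot be told apart. Of the 253 genes, 94 were called in METTL4-si hypoxia against normoxia. The part of these genes in the results below was not tested, and the counts of genes and of list members higher or lower in METTL4-si hypoxia than in normoxia are therefore also given with METTL4-si replicate 1 alone.

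METTL4 itself, the target of the siRNA (GRCh37 chromosome 18, 2537524 to 2571508, minus strand), had values of 20.8 and 18.9 in normoxia, 19.032 and 15.6 in Scr-si hypoxia and 14.4 and 12.2 in METTL4-si hypoxia. Both METTL4-si libraries lay below the other 4, whereas normoxia and Scr-si hypoxia overlapped, and the decrease against normoxia was called (log2 fold change -0.55, standard error 0.129, adjusted p = 0.00894, by limma). The means were 19.8 ± 1.34 and 13.3 ± 1.5 (SD, n = 2 each), so METTL4 RNA fell 1.46-fold on the scale of values with 1 added. Against Scr-si hypoxia the difference was -0.36 on the log2 scale and did not pass the test (adjusted p = 0.0717). Without normoxia replicate 1 the decrease in METTL4-si hypoxia against normoxia missed the threshold too (log2 fold change -0.48, adjusted p = 0.0763).

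By number of genes, most of the hypoxia response was still called with METTL4 siRNA, though many of the strongest increases were smaller, as given below. In METTL4-si hypoxia against normoxia 3634 genes (24.4% of those tested) were higher and 3451 (23.2%) were lower, against 2667 (17.9%) higher and 2715 (18.3%) lower in Scr-si hypoxia. The balance of the latter depended on the scaling, since 49.6% of the genes called were higher as given and 60.4% were with each library centred on its median. The groups share an estimate of the spread, so METTL4-si replicate 2 also bears on the calls in Scr-si hypoxia and on the classes. Fewer genes were called in Scr-si hypoxia with that library in the fit than without it. KRT18, at 76.3 and 73.4 in normoxia and 17.2 and 16.7 in Scr-si hypoxia, was not called (log2 fold change -2.08, adjusted p = 0.136, by limma). Of the 2667 genes that Scr-si hypoxia raised, 1653 (62.0%) were held with METTL4 siRNA, 165 (6.19%) were partly held, 509 (19.1%) were lost and 340 (12.7%) were undecided. Of the 2715 genes it lowered, 1854 (68.3%) were held, 77 (2.84%) partly held, 377 (13.9%) lost and 407 (15.0%) undecided. A further 933 genes were new and higher and 621 new and lower. Some genes passed beyond Scr-si hypoxia, as 342 of the held raised genes rose further and 231 of the held lowered genes fell further. Others passed normoxia, with 91 of the lost raised genes below it and 67 of the lost lowered genes above it.

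With METTL4-si replicate 1 alone, 3575 genes (24.0%) were higher and 3609 (24.3%) lower than in normoxia. Of the genes called with both replicates, 3225 of the higher ones (88.7% of those called with both and 90.2% of those called with replicate 1 alone) and 3038 of the lower ones (88.0% and 84.2%) were called again. Of the held genes, 1513 of 1653 raised (91.5%) and 1712 of 1854 lowered (92.3%) were held again, which was 83.5% and 89.3% of the genes held with replicate 1 alone. Of the new genes, 723 of 933 higher (77.5%) and 452 of 621 lower (72.8%) were new again, or 81.3% and 70.3% of those new with replicate 1 alone. The undecided classes shared the fewest genes, 222 of 340 raised (65.3%) and 263 of 407 lowered (64.6%), or 47.1% and 54.2% of those undecided with replicate 1 alone. Between METTL4-si and Scr-si hypoxia 1968 genes (13.2%) were higher and 1736 (11.7%) lower, so that 53.1% of them were higher, or 37.2% with median-centred libraries.

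The classes were also counted by the size of the hypoxia response. A gene with a small response has little room to be called in both comparisons, so size sets the classes in part and their shares cannot be compared across sizes. Among 2093 genes raised between 1.3-fold and 2-fold in Scr-si hypoxia, 1348 (64.4%) were held. Among 498 genes raised between 2-fold and 4-fold, 283 (56.8%) were held, 103 (20.7%) partly held and 109 (21.9%) lost. Among the 76 genes raised at least 4-fold, 22 (28.9%) were held, 42 (55.3%) partly held and 12 (15.8%) lost, and their median log2 fold change was 2.37 in Scr-si hypoxia and 1.21 in METTL4-si hypoxia (1.22 with replicate 1 alone). Long noncoding RNAs made up 14.7% of the held raised genes and 13.8% of the lost raised ones, but 3.29% of the held lowered genes, beside 10.3% of all genes tested.

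The response of the HIF targets shrank with METTL4 siRNA, and many of those outside glycolysis kept a reduced part of it. Of 43 such genes tested, 41 were raised in Scr-si hypoxia (median log2 fold change 1.62). In METTL4-si hypoxia 25 were higher and 9 lower than in normoxia, with a median of 0.48 (25 and 7, with a median of 0.52, with replicate 1 alone), beside a median of 0.01 over all genes tested. All genes tested had 24.4% higher and 23.2% lower. Of the 41 raised genes 2 were held, the mitochondrial protein gene NDUFA4L2 and the ubiquitin ligase subunit gene WSB1, 23 were partly held and 16 were lost. Between the hypoxia groups 40 of the 43 were lower with METTL4 siRNA and 0 were higher by limma.

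CA9, a carbonic anhydrase by which hypoxic cells control their pH, had values of 0.358 and 1.17 in normoxia, 54.0 and 56.2 in Scr-si hypoxia and 5.53 and 5.84 in METTL4-si hypoxia. The METTL4-si libraries lay well above normoxia and well below Scr-si hypoxia, with 39% of the log2 response left (log2 fold change 1.96, standard error 0.207, adjusted p = 0.000245 for METTL4-si hypoxia against normoxia). VEGFA, the main growth factor of blood vessels, stood at 70.2 and 83.8 in normoxia, 439.6 and 432 in Scr-si hypoxia and 267 and 231 in METTL4-si hypoxia, and 67.5% of its log2 response was left (adjusted p = 2.77e-05). For NDRG1, a stress-induced gene, the values were 118 and 124 in normoxia, 535 and 569 in Scr-si hypoxia and 242 and 211 in METTL4-si hypoxia. The mTORC1 inhibitor gene DDIT4 had 225 and 235 in normoxia, 756 and 802 in Scr-si hypoxia and 467 and 450.3 in METTL4-si hypoxia, and the creatine transporter gene SLC6A8 had 21.0 and 22.6 in normoxia, 116 and 118 in Scr-si hypoxia and 47.4 and 49.4 in METTL4-si hypoxia. In all 5 genes the 3 groups did not overlap.

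Other targets were lost. BNIP3, which marks mitochondria for mitophagy, had values of 97.2 and 98.0 in normoxia, 353 and 346 in Scr-si hypoxia and 119.6 and 85.1 in METTL4-si hypoxia, so that the METTL4-si libraries lay on both sides of normoxia (log2 fold change 0.05, adjusted p = 0.787). Adrenomedullin (ADM), a vasodilator peptide, stood at 44.7 and 47.3 in normoxia, 157 and 160.3 in Scr-si hypoxia and 59.0 and 48.2 in METTL4-si hypoxia, and the histone demethylase gene KDM3A at 77.5 and 76.9 in normoxia, 180.0 and 188 in Scr-si hypoxia and 89.5 and 76.7 in METTL4-si hypoxia. PDK1, the kinase that inhibits pyruvate dehydrogenase, had 142 and 139 in normoxia, 366 and 348 in Scr-si hypoxia and 187 and 143 in METTL4-si hypoxia. It was lost with both replicates but partly held with replicate 1 alone (log2 fold change 0.41). ANGPTL4, a lipase inhibitor, fell below normoxia, from 10.8 and 10.9 to 3.33 and 3.02 (log2 fold change -1.51, standard error 0.119, adjusted p = 7.37e-05), although Scr-si hypoxia had raised it to 23.2 and 27.4. The BHLHE40 gene, a transcriptional repressor, was at 189 and 179 against 141 and 149.96 in normoxia, a difference that passed the p-value but not the 1.3-fold threshold (log2 fold change 0.34, adjusted p = 0.00449).

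The promoters of a HIF target from each of these classes are shown since HIF is known to bind sites with a core such as ACGTG. They are the 300 bases from 250 before to 50 after the start site, 5′ to 3′ on the strand of the gene, from RefSeq (GRCh38.p14), with the core in capitals on whichever strand it lay. CA9, at chr9:35673678-35673977 on the plus strand, was partly held, and BNIP3, at chr10:131981874-131982173 on the minus strand, was lost.
CA9: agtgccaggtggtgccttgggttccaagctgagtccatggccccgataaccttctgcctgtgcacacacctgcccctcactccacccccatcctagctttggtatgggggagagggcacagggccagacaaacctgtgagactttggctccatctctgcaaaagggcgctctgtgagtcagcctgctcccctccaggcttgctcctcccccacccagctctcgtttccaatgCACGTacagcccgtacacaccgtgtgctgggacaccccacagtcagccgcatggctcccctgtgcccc
BNIP3: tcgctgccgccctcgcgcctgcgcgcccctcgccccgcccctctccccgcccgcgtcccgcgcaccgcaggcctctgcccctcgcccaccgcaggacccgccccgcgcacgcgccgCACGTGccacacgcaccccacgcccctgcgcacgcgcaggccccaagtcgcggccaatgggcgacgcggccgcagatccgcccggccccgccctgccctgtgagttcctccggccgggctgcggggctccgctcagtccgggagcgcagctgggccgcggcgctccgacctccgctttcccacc
In CA9 the core lay on the reverse strand with its first base at position -18 from the start site, and in BNIP3 2 overlapping matches, 1 on each strand, started at -134 and -133. Of the 31 HIF targets outside glycolysis with a promoter sequence, 20 (64.5%) held the core on either strand, beside 2779 of 10217 genes tested (27.2%). The share was 26.6% in held raised genes (298 of 1121), 34.7% in partly held (42 of 121) and 31.5% in lost ones (108 of 343).

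The glycolysis genes, which turn glucose into lactate, mostly lost their hypoxia response. Of 22 tested, 16 were raised in Scr-si hypoxia (median log2 fold change 0.71), and of these 13 were lost, 2 partly held (SLC2A1 and PFKL) and 1 held (SLC2A3). In METTL4-si hypoxia 3 of the 22 were higher and 6 lower than in normoxia, with a median of -0.11 (-0.15, 5 higher and 7 lower with replicate 1 alone). Over all genes tested, 24.4% were higher and 23.2% lower than in normoxia. The hexokinase gene HK2 had values of 93.1 and 98.5 in normoxia, 301 and 307 in Scr-si hypoxia and 99.8 and 88.0 in METTL4-si hypoxia, and the phosphoglycerate kinase gene PGK1 had 766 and 789 in normoxia, 1784 and 1814 in Scr-si hypoxia and 846 and 711 in METTL4-si hypoxia. In both genes the METTL4-si libraries spanned the normoxia values. The lactate dehydrogenase gene LDHA passed below normoxia, with 2205 and 2219.9 in normoxia, 3596 and 3657 in Scr-si hypoxia and 1647 and 1312 in METTL4-si hypoxia (log2 fold change -0.59, standard error 0.111, adjusted p = 0.00322). PFKFB3, which makes the activator of phosphofructokinase, did the same, at 121 and 123 in normoxia, 172 and 184 in Scr-si hypoxia and 71.5 and 76.3 in METTL4-si hypoxia.

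The glucose transporter genes kept part or all of their response. SLC2A1 (GLUT1) stood at 88.3 and 96.3 in normoxia, 485 and 505 in Scr-si hypoxia and 172 and 183 in METTL4-si hypoxia, leaving 38.8% of its log2 response. SLC2A3 (GLUT3) rose from 16.8 and 21.3 in normoxia to 55.7 and 57.8 in Scr-si hypoxia and 90.4 and 76.0 in METTL4-si hypoxia (log2 fold change 2.08, standard error 0.126, adjusted p = 2.77e-05 against normoxia), and with METTL4 siRNA it was higher in both libraries than in either Scr-si hypoxia library. PFKFB4 went the other way, from 65.5 and 65.9 to 40.7 and 42.1 and then 22.7 and 20.6.

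Among the HIF subunits, oxygen sensors and feedback genes, 2 of 13 were higher and 3 lower in METTL4-si hypoxia than in normoxia (1 and 3 with replicate 1 alone). Of all genes tested 24.4% were higher and 23.2% lower, so these counts are no result about the list. HIF1A RNA, for the alpha subunit of HIF-1, was lower in both hypoxia groups, at 640.3 and 635 in normoxia, 497 and 459 in Scr-si hypoxia and 498 and 427 in METTL4-si hypoxia, and with replicate 1 alone it was undecided. EPAS1, for the alpha subunit of HIF-2, had 202 and 201 in normoxia, 367 and 363 in Scr-si hypoxia and 294 and 267 in METTL4-si hypoxia and kept 55.4% of its log2 response. EGLN1, for the prolyl hydroxylase that acts on HIF, fell below normoxia, at 135 and 137 in normoxia, 208 and 197 in Scr-si hypoxia and 89.0 and 65.4 in METTL4-si hypoxia (log2 fold change -0.83, standard error 0.13, adjusted p = 0.00139). EGLN3, another such hydroxylase, was lost, with 2.19 and 2.56 in normoxia, 7.47 and 6.88 in Scr-si hypoxia and 2.11 and 3.73 in METTL4-si hypoxia. ZMIZ1, a transcriptional coregulator, was new and lower, at 145 and 145 in normoxia, 180.5 and 181 in Scr-si hypoxia and 97.5 and 119.6 in METTL4-si hypoxia.

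Matrix and mesenchymal genes split, and most kept their response. Of 30 tested, 20 were raised in Scr-si hypoxia and 17 in METTL4-si hypoxia, with 5 and 7 lower and medians of 0.72 and 0.80 (17 higher and 7 lower, with a median of 0.84, with replicate 1 alone). Among all genes tested, 24.4% were higher and 23.2% lower in METTL4-si hypoxia. Of the 20 raised genes 12 were held, 3 partly held and 5 lost. MMP2, a gelatinase that degrades matrix, had 47.5 and 51.0 in normoxia, 286 and 304 in Scr-si hypoxia and 341 and 335 in METTL4-si hypoxia (log2 fold change 2.75, standard error 0.0667, adjusted p = 1.27e-06 for METTL4-si hypoxia against normoxia), so both hypoxia groups lay far above normoxia. The smooth muscle actin gene ACTA2 rose further with METTL4 siRNA, at 11.7 and 11.6 in normoxia, 36.8 and 38.6 in Scr-si hypoxia and 57.0 and 57.3 in METTL4-si hypoxia. COL6A2, for a chain of collagen VI, was held, at 665 and 688 in normoxia, 1287 and 1348 in Scr-si hypoxia and 1592 and 1830.0 in METTL4-si hypoxia. The partly held genes were COL1A1, COL1A2 and COL5A1, for fibrillar collagens. COL1A2 had 805 and 882 in normoxia, 3595 and 3755 in Scr-si hypoxia and 1939 and 2003 in METTL4-si hypoxia. Of 10 fibroblast markers 8 had a row, with summed values of 1270 and 1371 in normoxia, 4746 and 4956 in Scr-si hypoxia and 2707 and 2892 in METTL4-si hypoxia, while DCN and PDGFRA had none. Most of each sum was COL1A1 and COL1A2, so it is no separate reading of fibroblasts. The other markers went different ways. THY1 fell from 232 and 238 in normoxia to 137 and 144 in METTL4-si hypoxia, and PDGFRB stayed near normoxia. FAP and POSTN rose beyond Scr-si hypoxia, COL3A1 overlapped it, and LUM lay between the groups. The part of fibroblast markers in these results was not tested.

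Among the 5 lost genes were IGFBP3, TGFBI, VIM and SPARC. IGFBP3, which binds insulin-like growth factors, had the greatest response that was lost, with 14.3 and 21.5 in normoxia, 328 and 329 in Scr-si hypoxia and 21.3 and 19.8 in METTL4-si hypoxia (log2 fold change 4.15 in Scr-si hypoxia and 0.22 in METTL4-si hypoxia, the latter with adjusted p = 0.285). Both METTL4-si libraries lay between the normoxia libraries. TGFBI, a matrix protein induced by TGF-beta, stood at 486 and 496 in normoxia, 1134 and 1178 in Scr-si hypoxia and 483 and 430.5 in METTL4-si hypoxia, with a METTL4-si log2 fold change of -0.11 (adjusted p = 0.258). Vimentin (VIM), the intermediate filament of mesenchymal cells, had 3230.0 and 3304 in normoxia, 5242 and 5476 in Scr-si hypoxia and 4171 and 3469 in METTL4-si hypoxia, and with replicate 1 alone it was undecided. The tenascin gene TNC, a matrix glycoprotein, reversed, from 44.1 and 43.9 in normoxia to 31.4 and 31.6 in Scr-si hypoxia and 119.6 and 111 in METTL4-si hypoxia. Several genes here were named by the study from these libraries, so their count is no independent evidence of direction.

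Genes of collagen-modifying enzymes were partly held in 5 of 9 cases. Of 10 collagen hydroxylase and lysyl oxidase genes, 9 were raised in Scr-si hypoxia (median 1.26), and 6 were higher and 1 lower than normoxia in METTL4-si hypoxia (median 0.47, and 6, 1 and 0.50 with replicate 1 alone). Besides the partly held genes, 2 were lost, 1 was held and 1 undecided. Over all genes tested, 17.9% were higher in Scr-si hypoxia, and 24.4% were higher and 23.2% lower in METTL4-si hypoxia. The prolyl hydroxylase gene P4HA2 had 73.1 and 83.9 in normoxia, 259.7 and 274 in Scr-si hypoxia and 159 and 146 in METTL4-si hypoxia, and the lysyl hydroxylase gene PLOD2 had 149 and 161 in normoxia, 539.5 and 495 in Scr-si hypoxia and 291 and 228 in METTL4-si hypoxia. LOX, which cross-links collagen, stood at 187 and 199 in normoxia, 721 and 664 in Scr-si hypoxia and 379 and 294 in METTL4-si hypoxia. The lysyl oxidase-like genes LOXL2 and LOXL4, named after their values were seen, were lost, with 224 and 229.8 in normoxia, 554 and 569 in Scr-si hypoxia and 279 and 285 in METTL4-si hypoxia for LOXL2 and 19.5 and 20.6 in normoxia, 34.8 and 37.5 in Scr-si hypoxia and 16.0 and 19.6 in METTL4-si hypoxia for LOXL4. LOXL1 was the undecided gene. P4HA3 instead rose further, at 6.22 and 5.50 in normoxia, 12.9 and 12.9 in Scr-si hypoxia and 22.3 and 20.6 in METTL4-si hypoxia (log2 fold change 1.71, standard error 0.106, adjusted p = 2.94e-05 against normoxia).

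The transcription factors of EMT showed no common direction, with 1 of 7 higher and 2 lower in METTL4-si hypoxia (1 and 3 with replicate 1 alone). With 24.4% of all genes tested higher and 23.2% lower, counts in so short a list are no result about it. ZEB2, a repressor of epithelial genes, was held, at 41.4 and 40.4 in normoxia, 71.7 and 69.2 in Scr-si hypoxia and 66.5 and 53.5 in METTL4-si hypoxia, and SNAI2 (Slug) was held as lowered, at 129 and 118 in normoxia, 81.5 and 75.7 in Scr-si hypoxia and 83.4 and 74.3 in METTL4-si hypoxia. SNAI1 (Snail), chosen after its values were seen, was lost, at 4.74 and 6.71 in normoxia, 16.0 and 17.6 in Scr-si hypoxia and 3.42 and 4.18 in METTL4-si hypoxia. Of 13 epithelial genes tested, 5 were higher and 0 lower in METTL4-si hypoxia by limma, where edgeR on whole reads called 8 higher and 0 lower and replicate 1 alone gave 4 higher and 3 lower. Their median log2 value over normoxia was 0.30 in METTL4-si replicate 1 and 1.96 in replicate 2, so the group depended on the library. The desmosomal cadherin gene DSG2 was high in both, at 251.13 and 211 against 141 and 136 in normoxia. The keratin gene KRT18 and the desmosome gene DSP, chosen after their values were seen, lay below normoxia in replicate 1 and above it in replicate 2. KRT18 had 76.3 and 73.4 in normoxia, 17.2 and 16.7 in Scr-si hypoxia and 24.2 and 379 in METTL4-si hypoxia. DSP had 36.9 and 36.4 in normoxia, 8.19 and 8.46 in Scr-si hypoxia and 13.4 and 97.5 in METTL4-si hypoxia. The tight junction gene CLDN1 fell in Scr-si hypoxia and lay above both normoxia libraries with METTL4 siRNA, a difference that did not pass the test (adjusted p = 0.0537), at 117 and 118 in normoxia, 29.7 and 30.0 in Scr-si hypoxia and 151 and 127 in METTL4-si hypoxia.

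Among the genes that were new with METTL4 siRNA, interferon-stimulated genes rose together. Their products are made after interferon binds its receptor and act against viruses. Of 37 tested, 34 were higher and 0 lower in METTL4-si hypoxia than in normoxia by limma (median 1.5), and the same counts came from replicate 1 alone (median 1.61), where Scr-si hypoxia had 8 higher and 2 lower (median 0.21). By class 24 were new and higher and 8 were raised in both hypoxia groups, and IRF9 was called against normoxia only. Over all genes tested, 24.4% were higher in METTL4-si hypoxia and 17.9% in Scr-si hypoxia. The 8 higher in Scr-si hypoxia were near that share and are no result about this list. The lowered gene RIGI, a sensor of viral RNA, was lost and went above normoxia, at 6.3999 and 7.34 in normoxia, 4.10 and 3.92 in Scr-si hypoxia and 18.2 and 16.4 in METTL4-si hypoxia. Among the members that were not called, IRF1, a transcription factor of the response, missed the 1.3-fold threshold, at 22.7 and 20.9 in normoxia, 21.1 and 23.6 in Scr-si hypoxia and 28.4 and 27.6 in METTL4-si hypoxia. IFIT5, which Scr-si hypoxia lowered, had 28.4 and 28.5 in normoxia, 18.4 and 19.8 in Scr-si hypoxia and 23.7 and 20.8 in METTL4-si hypoxia.

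IFI6, an interferon-induced mitochondrial protein gene (GRCh37 chromosome 1, 27992575 to 27998723), had 0.582 and 0.671 in normoxia, 1.16 and 1.39 in Scr-si hypoxia and 92.2 and 120.0 in METTL4-si hypoxia (log2 fold change 6.03, standard error 0.152, adjusted p = 1.3e-06 against normoxia). The 2 METTL4-si libraries were high and the other 4 at or under 1.39, and IFI6 was called higher in Scr-si hypoxia as well, by 0.48 on the log2 scale. MX1, a GTPase that blocks viruses, was new, at 2.10 and 1.22 in normoxia, 1.83 and 1.15 in Scr-si hypoxia and 17.4 and 15.4 in METTL4-si hypoxia (log2 fold change 2.73, standard error 0.207, adjusted p = 6.57e-05). IFI27 stood at 2.55 and 2.47 in normoxia, 4.48 and 6.35 in Scr-si hypoxia and 41.6 and 47.9 in METTL4-si hypoxia, and UBE2L6, the conjugating enzyme for ISG15, at 4.79 and 4.28 in normoxia, 5.88 and 6.50 in Scr-si hypoxia and 23.9 and 22.3 in METTL4-si hypoxia. OAS2, a sensor of double-stranded RNA chosen after its values were seen, had values of at most 0.241 in the 4 Scr-si libraries and 9.14 and 8.96 with METTL4 siRNA. In each of these 5 genes both METTL4-si libraries lay above all 4 others.

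The promoters of IFI6 and MX1 are shown because the interferon-stimulated response element, known to drive such genes, has a core of GAAA, any 2 bases and GAAA again, in capitals here (same window, strand rule and source as above). IFI6 lies at chr1:27672143-27672442 on the minus strand and MX1 at chr21:41420308-41420607 on the plus strand.
IFI6: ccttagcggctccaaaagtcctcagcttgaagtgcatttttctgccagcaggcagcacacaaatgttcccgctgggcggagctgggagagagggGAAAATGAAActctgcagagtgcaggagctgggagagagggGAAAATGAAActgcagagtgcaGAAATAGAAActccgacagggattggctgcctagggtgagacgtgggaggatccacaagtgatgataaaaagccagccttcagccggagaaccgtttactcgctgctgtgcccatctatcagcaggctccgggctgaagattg
MX1: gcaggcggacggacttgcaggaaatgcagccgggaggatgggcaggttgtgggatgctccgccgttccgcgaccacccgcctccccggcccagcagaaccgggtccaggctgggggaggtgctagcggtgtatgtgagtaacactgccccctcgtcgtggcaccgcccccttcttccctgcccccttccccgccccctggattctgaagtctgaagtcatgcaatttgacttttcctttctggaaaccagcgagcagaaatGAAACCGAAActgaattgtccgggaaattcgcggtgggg
IFI6 held 3 matches, starting at -156, -115 and -93 from the start site, and MX1 held 1, starting at 12 after it. Of 30 interferon-stimulated genes with a promoter sequence 18 (60.0%) held the core on either strand. The share was 37 of 677 (5.47%) in new higher genes, 7 of 425 (1.65%) in new lower genes and 287 of 10217 (2.81%) in all genes tested. This motif was chosen after the values were seen, so the shares are a description.

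Among the held raised genes with the greatest fold change were some that rose further. C1R and C1S, the proteases that start the classical complement pathway, had 1.0293 and 1.09 in normoxia, 4.77 and 5.40 in Scr-si hypoxia and 40.003 and 38.3 in METTL4-si hypoxia for C1R and 7.70 and 9.10 in normoxia, 33.5 and 31.6 in Scr-si hypoxia and 179 and 164 in METTL4-si hypoxia for C1S. The lysosomal and melanosomal glycoprotein gene GPNMB had 7.88 and 8.98 in normoxia, 40.4 and 39.9 in Scr-si hypoxia and 182 and 159.9 in METTL4-si hypoxia (log2 fold change 4.19, standard error 0.0952, adjusted p = 1.27e-06), and TMEM119, a membrane protein gene, had 2.28 and 2.60 in normoxia, 38.3 and 40.4 in Scr-si hypoxia and 51.1 and 51.8 in METTL4-si hypoxia. In all 4 the increase in METTL4-si hypoxia was beyond that of Scr-si hypoxia in both libraries. ICAM1, an adhesion molecule, was held at 13.7 and 14.4 in normoxia, 42.9 and 41.4 in Scr-si hypoxia and 49.3 and 48.3 in METTL4-si hypoxia, whereas the chemokine gene CXCL1 was held as lowered, at 63.7 and 64.6 in normoxia, 9.20 and 9.75 in Scr-si hypoxia and 14.96 and 9.87 in METTL4-si hypoxia. The counts of inflammatory genes stand beside 24.4% of all genes tested that were higher and 23.2% that were lower. Of 18 inflammatory genes, 6 were higher and 6 lower than in normoxia (4 and 6 with replicate 1 alone).

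The new higher genes with the greatest fold change were partly those that differed between the METTL4-si replicates. GREB1, an estrogen-regulated gene, had 1.52 and 2.06 in normoxia, 2.31 and 3.20 in Scr-si hypoxia and 10.6 and 121 in METTL4-si hypoxia, the receptor gene NOTCH3 had 2.06 and 1.43 in normoxia, 4.67 and 6.21 in Scr-si hypoxia and 17.2 and 55.9 in METTL4-si hypoxia and the transporter gene ABCA2 had 1.34 and 1.17 in normoxia, 1.35 and 1.29 in Scr-si hypoxia and 3.99 and 31.6 in METTL4-si hypoxia. In these 3 genes replicate 2 was several times replicate 1, and with replicate 1 alone GREB1 and NOTCH3 were held rather than new. MTSS1, a scaffold of actin and membranes, was alike in both, at 1.92 and 1.68 in normoxia, 1.59 and 1.72 in Scr-si hypoxia and 14.6 and 17.8 in METTL4-si hypoxia (log2 fold change 2.62, standard error 0.141, adjusted p = 1.88e-05).

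The new lower genes were led by SYT15, of the synaptotagmin family, at 8.91 and 10.1 in normoxia, 7.47 and 6.64 in Scr-si hypoxia and 0.516 and 0.705 in METTL4-si hypoxia. EPHA2, a receptor of ephrin, stood at 150.2 and 152 in normoxia, 113 and 123 in Scr-si hypoxia and 37.5 and 43.5 in METTL4-si hypoxia (log2 fold change -1.88, standard error 0.0875, adjusted p = 1.33e-05), SMAD6, an inhibitor of BMP signalling, at 30.4 and 30.2 in normoxia, 34.7 and 39.3 in Scr-si hypoxia and 5.91 and 9.92 in METTL4-si hypoxia, ZNF114, a zinc finger gene, at 231 and 236 in normoxia, 239.8 and 249 in Scr-si hypoxia and 71.3 and 57.7 in METTL4-si hypoxia, and B3GALT5, a galactosyltransferase gene, at 22.1 and 21.1 in normoxia, 15.5 and 16.5 in Scr-si hypoxia and 3.89 and 5.99 in METTL4-si hypoxia. The METTL4-si libraries were below all 4 others in each, and SYT15 and B3GALT5 were held as lowered with replicate 1 alone. Of 21 lncRNAs, 5 were higher and 9 lower (4 and 10 with replicate 1 alone). These counts stand beside 24.4% of all genes tested that were higher and 23.2% that were lower, so the higher share is no result about this list. UCA1, first described in urothelial carcinoma, fell in Scr-si hypoxia and further with METTL4 siRNA, at 127 and 125 in normoxia, 30.3 and 29.4 in Scr-si hypoxia and 2.25 and 2.01 in METTL4-si hypoxia (log2 fold change -5.34, standard error 0.0854, adjusted p = 4.1e-07), which was the greatest fall among held lowered genes with a mean value of at least 5. RP11-390F4.3, the lncRNA that the study followed, had 0.358 and 0.336 in normoxia, 1.59 and 2.25 in Scr-si hypoxia and 0.469 and 1.41 in METTL4-si hypoxia, and METTL4-si replicate 2 lay closer to Scr-si hypoxia than replicate 1. It was called higher in Scr-si hypoxia (log2 fold change 1.11) but not in METTL4-si hypoxia against normoxia (0.48, adjusted p = 0.129, by limma). The difference between the 2 hypoxia groups was not called either (-0.62, adjusted p = 0.0903), so this lncRNA was undecided. With replicate 1 alone its log2 fold change against normoxia was 0.125. Its values were low in all 6 libraries.

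Most mitosis genes fell with METTL4 siRNA. Scr-si hypoxia lowered 10 of 46 tested (median -0.19), and METTL4-si hypoxia lowered 41 with 0 higher by limma (median -0.63, and 38 lower with replicate 1 alone, median -0.54). By class 10 were held as lowered and 27 were new and lower. Over all genes tested, 18.3% were lower in Scr-si hypoxia and 23.2% in METTL4-si hypoxia. The Scr-si hypoxia count was near that share, so it is no result about this list. The mitotic kinase gene AURKA had 203 and 204 in normoxia, 131 and 140.0 in Scr-si hypoxia and 87.7 and 86.5 in METTL4-si hypoxia (log2 fold change -1.22, standard error 0.0636, adjusted p = 1.73e-05), and the survivin gene BIRC5 had 179.8 and 185 in normoxia, 122 and 129.6 in Scr-si hypoxia and 73.8 and 64.9 in METTL4-si hypoxia. CDC20, the activator of the anaphase-promoting complex, had 171 and 170.4 in normoxia, 112 and 119 in Scr-si hypoxia and 88.5 and 85.5 in METTL4-si hypoxia. In each of these genes normoxia, Scr-si hypoxia and METTL4-si hypoxia were in descending order without overlap.

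DNA replication and nucleotide synthesis genes were lowered in both hypoxia groups, 26 of 49 in Scr-si hypoxia (median -0.42) and 32 in METTL4-si hypoxia (median -0.54, 34 lower with replicate 1 alone), with 0 higher in either by limma. The ribonucleotide reductase gene RRM2 had 284 and 279.6 in normoxia, 171 and 169 in Scr-si hypoxia and 88.2 and 98.2 in METTL4-si hypoxia (log2 fold change -1.59, standard error 0.07, adjusted p = 1.1e-05), and CDC6, which loads the replicative helicase, had 111 and 109 in normoxia, 62.1 and 64.5 in Scr-si hypoxia and 43.4 and 38.8 in METTL4-si hypoxia. The METTL4-si libraries lay between the Scr-si hypoxia ones for the replication factor gene MCM10, at 89.2 and 87.7 in normoxia, 39.5 and 43.5 in Scr-si hypoxia and 40.3 and 40.7 in METTL4-si hypoxia. Of 29 replication-dependent histone genes, 20 were lower (23 with replicate 1 alone, and 15 in Scr-si hypoxia), such as H1-5, at 241 and 234 in normoxia, 168 and 180.1 in Scr-si hypoxia and 104 and 111 in METTL4-si hypoxia. Histone genes share near-identical sequence, so the counting of single members is uncertain. The counts of both lists stand beside 18.3% of all genes tested that were lower in Scr-si hypoxia and 23.2% in METTL4-si hypoxia.

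Many nuclear-encoded ribosomal and mitochondrial genes were lower with METTL4 siRNA. Over all genes tested, 18.3% were lower in Scr-si hypoxia and 23.2% in METTL4-si hypoxia. The Scr-si hypoxia counts of cytosolic ribosomal and respiratory chain genes were near that share, so they are no result about those lists. Of 81 cytosolic ribosomal protein genes, 69 were lower in METTL4-si hypoxia (median -0.58, 77 lower with replicate 1 alone) against 18 in Scr-si hypoxia (median -0.31), and 0 were higher in either by limma. RPS26 had 164 and 163 in normoxia, 103 and 103 in Scr-si hypoxia and 76.3 and 65.5 in METTL4-si hypoxia and RPL23A had 381 and 393 in normoxia, 277 and 281 in Scr-si hypoxia and 220.1 and 213 in METTL4-si hypoxia. These genes have many processed pseudogenes that can share their reads, so single values are uncertain. Of 75 mitochondrial ribosomal protein genes 58 were lower (median -0.58, 61 lower with replicate 1 alone) against 49 in Scr-si hypoxia (median -0.50), as for MRPL20, at 147 and 145 in normoxia, 84.4 and 85.9 in Scr-si hypoxia and 66.0 and 75.8 in METTL4-si hypoxia. Of 75 nuclear-encoded respiratory chain genes 37 were lower (40 with replicate 1 alone) against 17 in Scr-si hypoxia (medians -0.38 and -0.25). ATP5F1B, for the catalytic subunit of ATP synthase, was new and lower, at 726 and 740.3 in normoxia, 599 and 630.4 in Scr-si hypoxia and 469.9 and 438 in METTL4-si hypoxia (log2 fold change -0.69, standard error 0.0674, adjusted p = 0.000175). The 13 mRNAs encoded by the mitochondrial genome had 1 higher and 1 lower in each hypoxia group (0 and 2 with METTL4-si replicate 1 alone).

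Of 32 cholesterol and fatty acid genes 16 were higher and 1 lower in METTL4-si hypoxia (median 0.41, and 13 and 1 with replicate 1 alone), against 7 and 1 in Scr-si hypoxia (median 0.14). The other 15 were not called. By class 6 were held, 5 were new and higher and 1 raised gene was undecided. Over all genes tested, 24.4% were higher and 23.2% lower in METTL4-si hypoxia, and 17.9% were higher and 18.3% lower in Scr-si hypoxia. The 7 higher in Scr-si hypoxia were near that share and are no result about this list. The desaturase gene SCD stood at 389.9 and 412 in normoxia, 1502 and 1530.5 in Scr-si hypoxia and 1718 and 1730.4 in METTL4-si hypoxia (log2 fold change 2.10, standard error 0.0657, adjusted p = 2.83e-06) and FADS2, of polyunsaturated fatty acid synthesis, at 72.8 and 80.5 in normoxia, 388 and 407 in Scr-si hypoxia and 385 and 407 in METTL4-si hypoxia, where the hypoxia groups overlapped. ACSS2, which makes acetyl-CoA from acetate, was new and higher, at 13.7 and 12.7 in normoxia, 13.2 and 13.5 in Scr-si hypoxia and 34.0 and 35.4 in METTL4-si hypoxia.

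The stress response genes had calls in both directions. Of 34 genes of the unfolded protein and integrated stress responses, 19 were higher in Scr-si hypoxia (median 0.40) and 12 were higher and 7 lower in METTL4-si hypoxia (median 0.08, and 11 and 8 with replicate 1 alone). The stress regulator gene NUPR1 was held, at 8.46 and 8.60 in normoxia, 44.5 and 46.1 in Scr-si hypoxia and 45.6 and 46.7 in METTL4-si hypoxia, and so was TRIB3, a target of ATF4 and CHOP, at 38.7 and 38.7 in normoxia, 72.8 and 77.1 in Scr-si hypoxia and 76.9 and 84.6 in METTL4-si hypoxia. The chaperone gene HSPA5 (BiP) of the endoplasmic reticulum was new and lower, at 690.4 and 686 in normoxia, 713 and 753 in Scr-si hypoxia and 400.1 and 366 in METTL4-si hypoxia (log2 fold change -0.84, standard error 0.0702, adjusted p = 9.03e-05). Of 24 NRF2 antioxidant genes 6 were higher and 8 lower (6 and 6 with replicate 1 alone), beside 24.4% and 23.2% of all genes tested, so neither share is a result about this list. AKR1C3, an aldo-keto reductase, was new and higher, at 41.6 and 41.6 in normoxia, 34.6 and 38.3 in Scr-si hypoxia and 121 and 102 in METTL4-si hypoxia, but near-identical AKR1C genes can share reads. HMOX1, the heme oxygenase, was new and lower, at 185 and 188 in normoxia, 158 and 168 in Scr-si hypoxia and 104 and 98.0 in METTL4-si hypoxia. Of 20 immediate early genes 6 were higher and 7 lower (5 and 8 with replicate 1 alone), again not far from those shares. FOSL1, a subunit of AP-1, was held as lowered, at 256 and 256 in normoxia, 51.6 and 59.2 in Scr-si hypoxia and 61.0 and 65.0 in METTL4-si hypoxia, and the MYC gene too, at 121 and 122 in normoxia, 66.7 and 62.6 in Scr-si hypoxia and 67.7 and 77.6 in METTL4-si hypoxia, whereas DUSP1, a phosphatase of MAP kinases, fell further, at 65.1 and 65.4 in normoxia, 42.2 and 42.6 in Scr-si hypoxia and 13.6 and 13.8 in METTL4-si hypoxia.

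The remaining lists changed in fewer members or in both directions, and their counts stand beside 24.4% of all genes tested that were higher and 23.2% that were lower. Of 22 p53 targets 10 were higher and 5 lower (9 and 6 with replicate 1 alone, and 6 higher without normoxia replicate 2). TP53INP1 was held, at 4.03 and 5.29 in normoxia, 14.3 and 15.4 in Scr-si hypoxia and 15.6 and 19.987 in METTL4-si hypoxia. Of 17 aminoacyl-tRNA synthetase genes 2 were higher and 9 lower in METTL4-si hypoxia (median -0.38, and 2 and 7 with replicate 1 alone), against 6 and 6 in Scr-si hypoxia (median 0.07). Of 21 histone lysine demethylase genes 5 were higher, a share near that of all genes, and 2 lower (5 and 2 with replicate 1 alone), with KDM5B held at 36.5 and 37.5 in normoxia, 88.3 and 87.4 in Scr-si hypoxia and 69.2 and 93.7 in METTL4-si hypoxia. Of 18 mitophagy and autophagy genes 8 were higher and 2 lower (7 and 1 with replicate 1 alone), with the lysosomal regulator TFEB at 52.2 and 51.3 in normoxia, 76.4 and 81.9 in Scr-si hypoxia and 111 and 117 in METTL4-si hypoxia. Of 17 circadian clock genes 10 were higher and 3 lower (8 and 3 with replicate 1 alone, and 9 and 1 in Scr-si hypoxia), and the repressor BHLHE41 was held, at 43.7 and 43.2 in normoxia, 133 and 130.0 in Scr-si hypoxia and 152 and 128 in METTL4-si hypoxia. Of 6 metallothionein and zinc genes 4 were lower and 0 higher by limma, also with replicate 1 alone, with MT1E at 23.7 and 22.8 in normoxia, 21.2 and 21.2 in Scr-si hypoxia and 13.037 and 12.2 in METTL4-si hypoxia, and metallothionein copies can share reads. Of 14 adenine methylation genes 1 was higher and 6 lower, METTL4 among them (0 and 5 with replicate 1 alone). ALKBH5, the RNA demethylase, rose in Scr-si hypoxia and fell below normoxia with METTL4 siRNA, at 114 and 114 in normoxia, 152 and 160.0 in Scr-si hypoxia and 77.2 and 90.9 in METTL4-si hypoxia (log2 fold change -0.44, standard error 0.0864, adjusted p = 0.00408).

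The lowered genes that METTL4 siRNA brought back were 377. Besides CLDN1 they were led by SIGLEC15, a sialic acid receptor gene, at 11.5 and 9.82 in normoxia, 2.31 and 2.29 in Scr-si hypoxia and 11.2 and 10.4 in METTL4-si hypoxia, and by GDF15, a stress cytokine gene, at 10.2 and 8.31 in normoxia, 1.98 and 2.20 in Scr-si hypoxia and 13.5 and 22.1 in METTL4-si hypoxia. KIAA1671 had 17.5 and 18.0 in normoxia, 1.88 and 2.34 in Scr-si hypoxia and 12.2 and 22.2 in METTL4-si hypoxia, and it was partly held with replicate 1 alone. WNT7B, a Wnt ligand, and THBS1, thrombospondin, are the contrary case, as they remained down. WNT7B had 61.0 and 60.9 in normoxia, 4.14 and 5.78 in Scr-si hypoxia and 5.49 and 10.7 in METTL4-si hypoxia. THBS1 had 284 and 283 in normoxia, 33.8 and 32.7 in Scr-si hypoxia and 7.83 and 44.002 in METTL4-si hypoxia, where the METTL4-si replicates lay on both sides of Scr-si hypoxia.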

How the data were processed

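RNA was sequenced in pairs of 150 bases from libraries made with the Kapa HyperPrep RiboErase kit. The authors used Trim Galore for trimming, HISAT2 for alignment (hg19), htseq-count for the reads of each gene and edgeR for scaling. The versions, the gene annotation and the strand setting are not given in the sources used here. The deposited signal is CPM after TMM scaling, in a table of 17232 genes and 6 BFTC909 libraries, and 16721 of the identifiers were found in GENCODE v44 on GRCh37. Every value is a whole number of reads times the worth of 1 read (100% within 0.1 of a read), which gave 19.04 to 24.1 M reads on genes per library. Counting error is thus small for all but low genes. The other deposited tables were not used here, nor were the authors' own comparisons, which hold fold changes and p-values.

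Groups follow the sample labels. The main test was limma 3.58.1 (eBayes with a trend, R 4.3.3) on log2(value + 1). It ran on 14869 genes that reached a value of 1 in 2 or more of the 6 libraries, with all 3 groups in 1 fit and Benjamini-Hochberg adjusted p-values over all genes of a comparison. No permutation test was run, since 2 libraries against 2 allow too few arrangements. The scripts were tested on simulated data. In all 18 alternatives were planned and 1 was added after the values were seen, which used edgeR 4.0.16 without METTL4-si replicate 2, while DESeq2 1.42.0 was a planned one. Promoters came from RefSeq on GRCh38.p14 for 10217 of the genes tested. Python 3.11.15 with pandas 2.3.3, numpy 2.4.6 and matplotlib 3.10.9 did the rest.

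The genes compared and the 29 lists, written from general knowledge, were chosen with earlier results of these data known. Genes were named by a rule: a list of hypoxia and EMT genes that the study turns on, whatever their values. In each of 6 classes (held, new and lost, in each direction) the rule took the 5 genes with the largest fold change, a mean value of at least 5, no overlap between the groups and, for held and new genes, the same direction by 1.3-fold in METTL4-si replicate 1 alone. From each list with 3 or more called members it took up to 4 members with the lowest adjusted p under those conditions. Other genes, including cell type markers and members cited as exceptions within a list, were named after their values were seen. A few genes that the rule names are not reported here.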

Additional observations from a re-analysis of the deposited data

How the results depend on the processing

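The log2 fold changes of the named genes gave 3392 values on the same side of the threshold as reported, 80 that lost the call, 20 that gained it and 0 reversed, of 3492. Genes higher in METTL4-si hypoxia than in normoxia came to 2412 with a pseudocount of 5, 2241 with a mean value of at least 5 and 1019 at 2-fold, against 3634, and genes lower to 2872, 3057 and 465, against 3451. Lower genes thus outnumbered higher ones with the pseudocount of 5 and the mean of at least 5, as they did with median-centred libraries (3486 higher, 3630 lower), without either normoxia replicate (2591 and 2792, 2714 and 2868) and without METTL4-si replicate 2 (3575 and 3609). Between METTL4-si and Scr-si hypoxia the balance turned from 53.1% higher to 37.2% with median-centred libraries, 49.4% at a mean of at least 5, and 48.2% and 49.4% without the Scr-si hypoxia replicates. The log2 fold changes of KRT8 and KRT18, which were not called, turned from 2.97 and 0.37 to -0.48 and -1.59 without METTL4-si replicate 2. The pseudocount of 5 left 947 held raised and 223 lost lowered genes, and the mean of at least 5 left 336 lost raised and 537 new higher genes. At 2-fold there were 271 held and 129 lost raised genes, 141 held and 51 lost lowered genes, 260 new higher and 59 new lower genes, and the decrease of METTL4 (-0.545) was not called. Median-centred libraries gave 953 new lower genes. Leaving out 1 library in turn gave 956 to 1914 held raised genes (956 and 1055 without normoxia replicates 1 and 2), 280 to 573 lost raised genes (298 and 280 without Scr-si hypoxia replicates 1 and 2), 188 to 595 lost lowered genes (234 and 229 without the normoxia replicates, 198 and 188 without the Scr-si hypoxia replicates, 595 without METTL4-si replicate 1), 498 to 1369 new higher genes (500 and 498 without the Scr-si hypoxia replicates), 362 to 850 new lower genes (385 and 362 likewise) and -0.652 to -0.438 for METTL4. The causes were not tested, beyond that some of these settings use fewer genes or libraries. A lone library is there assumed to vary like the other groups. With the replicate number as a replicate block 3685 genes were higher, 3486 lower, 1663 and 1867 held, 506 and 395 lost and 977 and 619 new, so no count moved by over 1.5 times. The same-numbered replicates had correlations of their deviations of 0.0188, 0.00143 and 0.154 between groups, so the numbers were not taken to pair samples. edgeR on whole reads called 3746 higher and 3501 lower, or 3800 and 3496 without METTL4-si replicate 2, and DESeq2 3216 and 3215.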
